A study of Mus musculus with 6 samples.

Results

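Sterol synthesis and SREBP lipogenic genes are the enzymes that turn acetyl-CoA into cholesterol and into fatty acids, with the factors that switch them on. The 28 members were taken by gene symbol from a deposited table of 22274 genes. The symbol column of that table held 27 of them. Cyp51 is listed there as Cyp51a1 and was matched by its gene identifier. Acat2 stands on 2 rows, of which the second is described as acetyltransferase 3 and was not used. All 28 members passed the filter on low counts. The RNA came from 6 libraries of mouse kidney cells labelled as primary renal fibroblasts, grown in medium with fetal bovine serum and all exposed for 48 h to 5 ng/ml TGF-β, which activates fibroblasts. In 3 control libraries, labelled wild type, the cells had a scrambled siRNA, and in 3 they had an siRNA that knocks down Prune2. How many siRNA sequences were used, and whether replicates were separate cultures, is not given in the sources used here, so the p-values reflect only how these libraries vary, and that variation may be technical.

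Cells make cholesterol through the mevalonate pathway. Its early enzymes build isoprenoid units, which also feed protein prenylation, dolichol and ubiquinone, and its late enzymes close and trim the sterol ring. The transcription factors SREBP-2 (gene Srebf2) and SREBP-1 (Srebf1) drive these genes and those of fatty acid synthesis. Both are held in the endoplasmic reticulum by INSIG proteins while sterol is plentiful and are escorted to the Golgi for cleavage by SCAP when it is scarce. SREBP proteins work on promoters together with the CCAAT-binding factor NF-Y and with Sp1.

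With Prune2 siRNA, 20 of the 28 members rose and 0 fell, against a background of 4.46% of the 13248 tested genes called higher and 5.83% called lower (10.3% in either direction). Among the 9091 tested genes at least as abundant as the lowest member, Pmvk, 5.35% were called higher. The members were chosen with earlier results of these data known, so these shares describe them and do not test them. A member or gene is called at an adjusted p under 0.05 in the quasi-likelihood test of edgeR, adjusted by Benjamini-Hochberg over all tested genes. The rises were small and much alike: the called members rose between 1.11-fold and 1.3-fold, with a median of 1.18-fold. The median log2 fold change (Prune2 siRNA over control) was 0.23 over the 28 members and 0.0042 over all tested genes. The 8 members not called were Mvk, Pmvk, Mvd, Ggps1, Hsd17b7, Ebp, Scap and Stard4, and 6 of them also had values above 0.

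**Figure D1:**
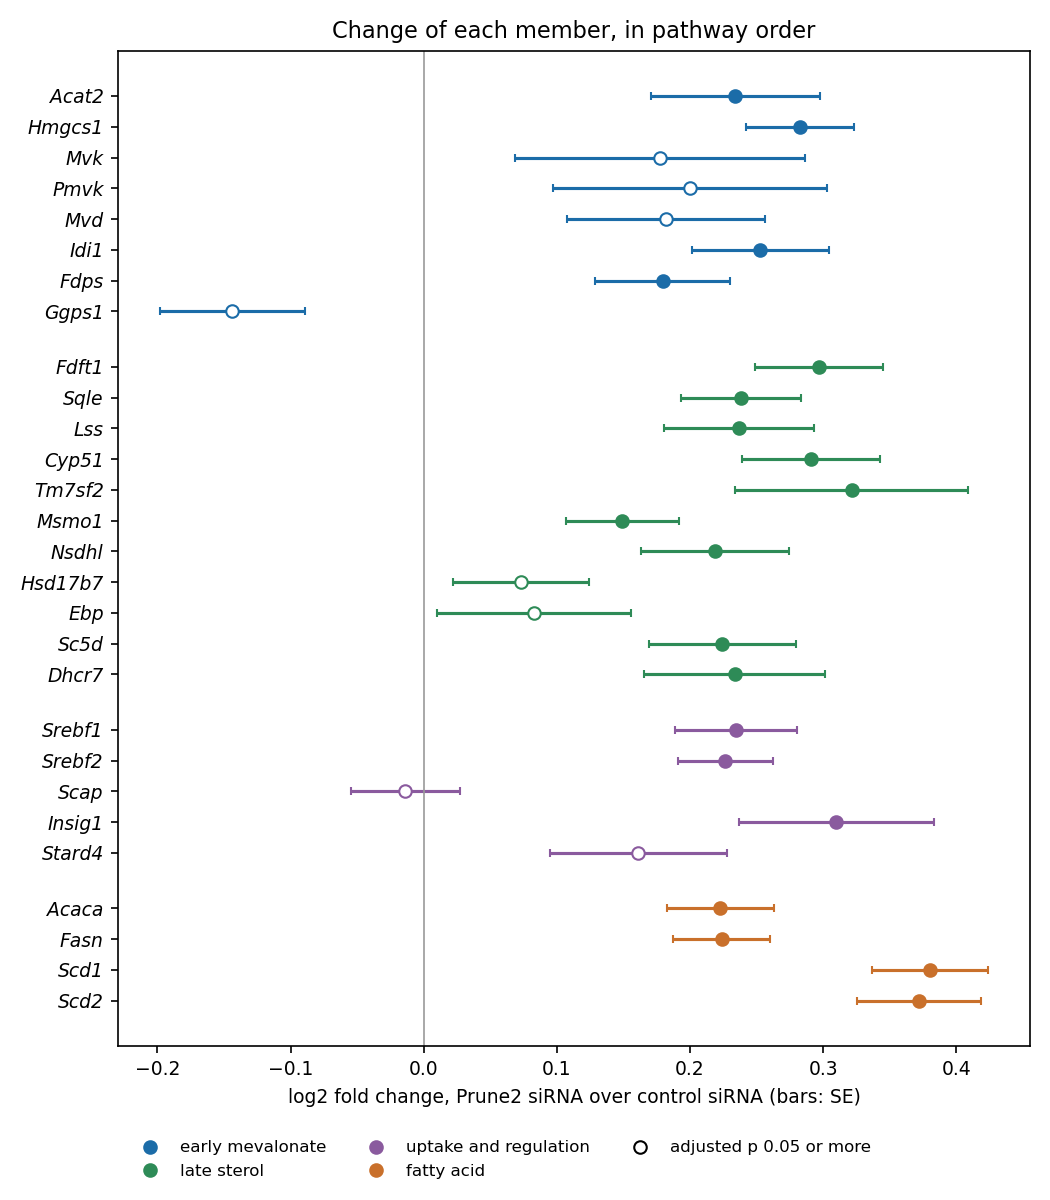
Log2 fold change of each of the 28 members (x axis, Prune2 siRNA over control siRNA, bars show the SE) in pathway order (y axis), coloured by role. Filled points have an adjusted p under 0.05. The 20 filled points lie between 0.15 and 0.38, while Ggps1 and Scap lie below 0.

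RefSeq windows of 300 bases, from 250 before to 50 after a gene's start on GRCm38.p6, were found for 22 of the 28 members. They were not found for Fdps, Fdft1, Sqle, Stard4, Scd1 and Scd2. The windows were searched on both strands for CCAAT, the NF-Y box, for CACGTG, an E-box that SREBP-1 can also bind, for TCACNCCAC, a form of the sterol regulatory element, and for GGGCGG, the GC box of Sp1. The CCAAT box was in 19 of the 22 members (86.4%), in 42.9% of the 10325 tested genes with a window and in 41.1% of all 27025 genes with one. It began in the last 100 bases before the start in 16 of the 22 members (72.7%) and in 26.5% of the tested genes. The GC box was in 18 of 22 members (81.8%) and 68.9% of tested genes. The E-box was in 5 of 22 (22.7%), namely Dhcr7, Hsd17b7, Insig1, Sc5d and Scap, and in 11.5% of tested genes. The searched form of the sterol element was in Hmgcs1 alone (4.55% of members and 1.44% of tested genes). Other forms of the element were not searched for, so their absence from the other windows is not shown. Genes with several starts had several chances to match. These shares are descriptions of letters in a window, not of bound sites.

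The 7 stretches below cover the 150 bases before the start, 5′ to 3′ on the gene's strand. They were chosen after the values were seen, to show called members of each role that have a window, beside Ggps1 and Scap, which were not called. Capitals mark matches to the sterol element, the E-box and the CCAAT box in either direction (ATTGG is the box on the other strand), and GC boxes are left in lower case. In Fasn the box and its reverse overlap, which gives CCAATTGG.
Hmgcs1 (chr13:119690201-119690350, plus strand): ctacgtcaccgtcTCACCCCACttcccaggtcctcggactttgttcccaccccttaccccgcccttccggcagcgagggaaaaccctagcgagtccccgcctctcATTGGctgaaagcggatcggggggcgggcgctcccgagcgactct
Cyp51 (chr5:4104698-4104847, minus strand): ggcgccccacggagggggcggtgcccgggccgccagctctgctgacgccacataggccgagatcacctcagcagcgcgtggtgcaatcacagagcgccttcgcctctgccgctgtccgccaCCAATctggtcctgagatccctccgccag
Srebf2 (chr15:82147119-82147268, plus strand): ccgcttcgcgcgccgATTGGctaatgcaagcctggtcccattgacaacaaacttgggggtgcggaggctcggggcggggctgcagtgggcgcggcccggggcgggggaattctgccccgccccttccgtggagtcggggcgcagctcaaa
Insig1 (chr5:28071262-28071411, plus strand): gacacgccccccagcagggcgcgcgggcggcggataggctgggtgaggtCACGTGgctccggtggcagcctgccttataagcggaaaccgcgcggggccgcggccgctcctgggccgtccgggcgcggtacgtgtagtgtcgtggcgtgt
Fasn (chr11:120824548-120824697, minus strand): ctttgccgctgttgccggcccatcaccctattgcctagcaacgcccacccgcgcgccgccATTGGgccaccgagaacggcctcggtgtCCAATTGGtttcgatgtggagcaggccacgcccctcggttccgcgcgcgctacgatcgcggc
Ggps1 (chr13:14063489-14063638, minus strand): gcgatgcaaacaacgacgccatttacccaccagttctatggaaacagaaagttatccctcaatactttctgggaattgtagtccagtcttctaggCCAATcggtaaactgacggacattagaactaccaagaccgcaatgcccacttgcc
Scap (chr9:110333206-110333355, plus strand): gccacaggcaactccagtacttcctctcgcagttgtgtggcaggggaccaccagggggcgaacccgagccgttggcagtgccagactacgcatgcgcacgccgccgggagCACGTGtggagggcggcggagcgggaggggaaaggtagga

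Counting back from the start as -1, Hmgcs1 carries the sterol element at bases -137 to -129 and a CCAAT box at -45 to -41. Cyp51, Srebf2 and Ggps1 have 1 CCAAT box each in the printed stretch. Insig1 has the E-box there, while its CCAAT box lies further out, at -216 to -212. Scap has an E-box and no CCAAT box in either of its windows. Carrying the CCAAT box did not separate members by call: it was in 13 of the 15 called members with a window and in 6 of the 7 not called. Ggps1 and Mvk, which were not called, have 3 and 5 copies in a window.

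**Figure D2:**
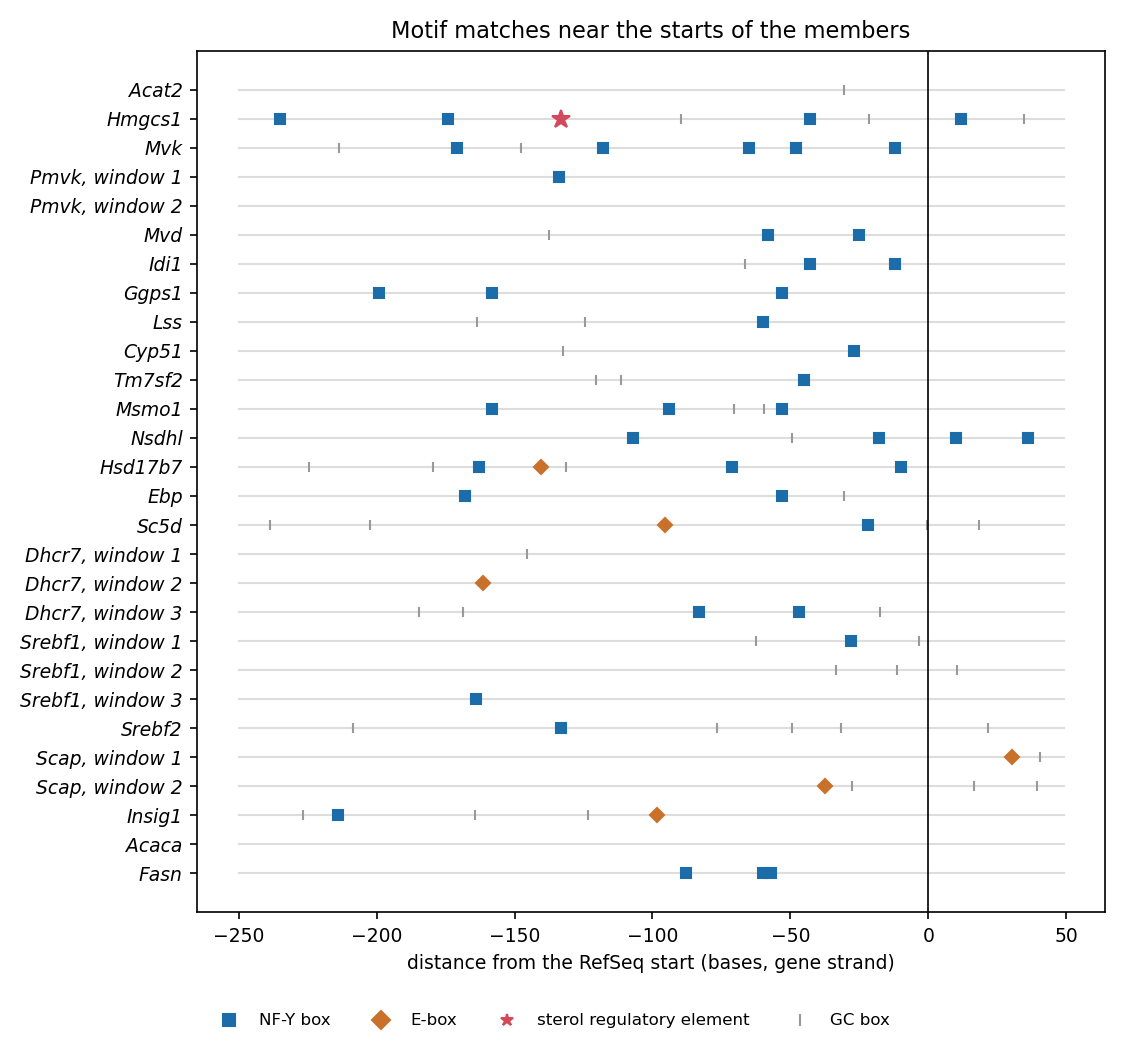
Matches to 4 motifs (symbols) by distance from the RefSeq start in bases (x axis, 0 is the start) for each window of the 22 members that have one (y axis, in pathway order). The NF-Y box, drawn as squares, appears in 19 of the 22 members. The searched form of the sterol regulatory element, drawn as a star, appears in Hmgcs1.

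The libraries held 20075265 to 23234797 counts each, and the 28 members together took 82335 to 87555 counts in control and 105397 to 113682 in Prune2 siRNA libraries. Prune2, the siRNA target, fell from 6.95 ± 0.775 to 3.8 ± 0.629 CPM (SD, n = 3; adjusted p = 0.000214). In deposited FPKM its fall was smaller, from 1.18 ± 0.132 to 0.847 ± 0.0643 (SD, n = 3). The log2 fold change of Prune2 was -0.867 from counts and -0.479 in the authors' deposited table. The 13 fibroblast markers ranged widely in controls: Acta2, Vim, Col1a1 and Col1a2 stood at 370, 260, 39.7 and 16 FPKM, and Pdgfra, Fap and Lum at 0.853, 0.0433 and 0.0167 FPKM. So did the 13 tubular epithelial markers, with Krt8, Epcam and Cdh1 at 1230, 244 and 238 FPKM, Umod at 0.693 FPKM, and Slc34a1 and Aqp2 at 0. Of the leukocyte markers, 15 of 15 tested fell (median log2 fold change -2.61), and their sum over 18 went from 182 to 226 CPM in control to 40.5 to 44 CPM in Prune2 siRNA libraries. Cd3e had no count in any library, and Cd79a and S100a8 had too few counts to be tested. Of 10 endothelial markers 6 fell (sum 135 to 147 against 102 to 105 CPM). Of 10 tested fibroblast markers 5 fell and 5 were not called (sum 1620 to 1690 against 1270 to 1350 CPM). The 5 that fell were Vim, Postn, Acta2, Col1a1 and Col1a2, at 0.694, 0.796, 0.819, 0.863 and 0.869 of control. Tubular epithelial markers went both ways, with 3 higher and 3 lower of 10 tested (sum 5580 to 5710 against 5120 to 5570 CPM). The 3 higher were Cdh16 at 1.22-fold, Pax8 at 1.17-fold and Slc12a3 at 2.68-fold. The 3 lower were Krt8, Lrp2 and Aqp1, at 0.912, 0.837 and 0.752 of control. Of 6 adipocyte markers only Fabp4 had enough counts to be tested (3.18 ± 0.413 against 2.25 ± 0.366 CPM, not called), and Adipoq, Plin1 and Cidec had no count. The part of these shifts in the rise of the members was not tested. In bulk RNA, fewer cells of a type and less RNA per cell cannot be told apart.

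One library in each group stood lower than the others for these genes. Control replicate 3 was the lowest control library for 21 of the 28 members, and Prune2 siRNA replicate 3 was the lowest of its group for 18. Relative to the mean of the controls, the median member stood at 0.04, 0.05 and -0.07 on the log2 scale in control replicates 1, 2 and 3, and at 0.26, 0.25 and 0.15 in Prune2 siRNA replicates 1, 2 and 3. Even so, the libraries of the groups did not overlap for 21 members, each with all Prune2 siRNA libraries higher, where 11.9% of tested genes showed that. Called members numbered 15 without control replicate 3 and likewise 15 without Prune2 siRNA replicate 1. They numbered 19 without Prune2 siRNA replicate 3.

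**Figure D3:**
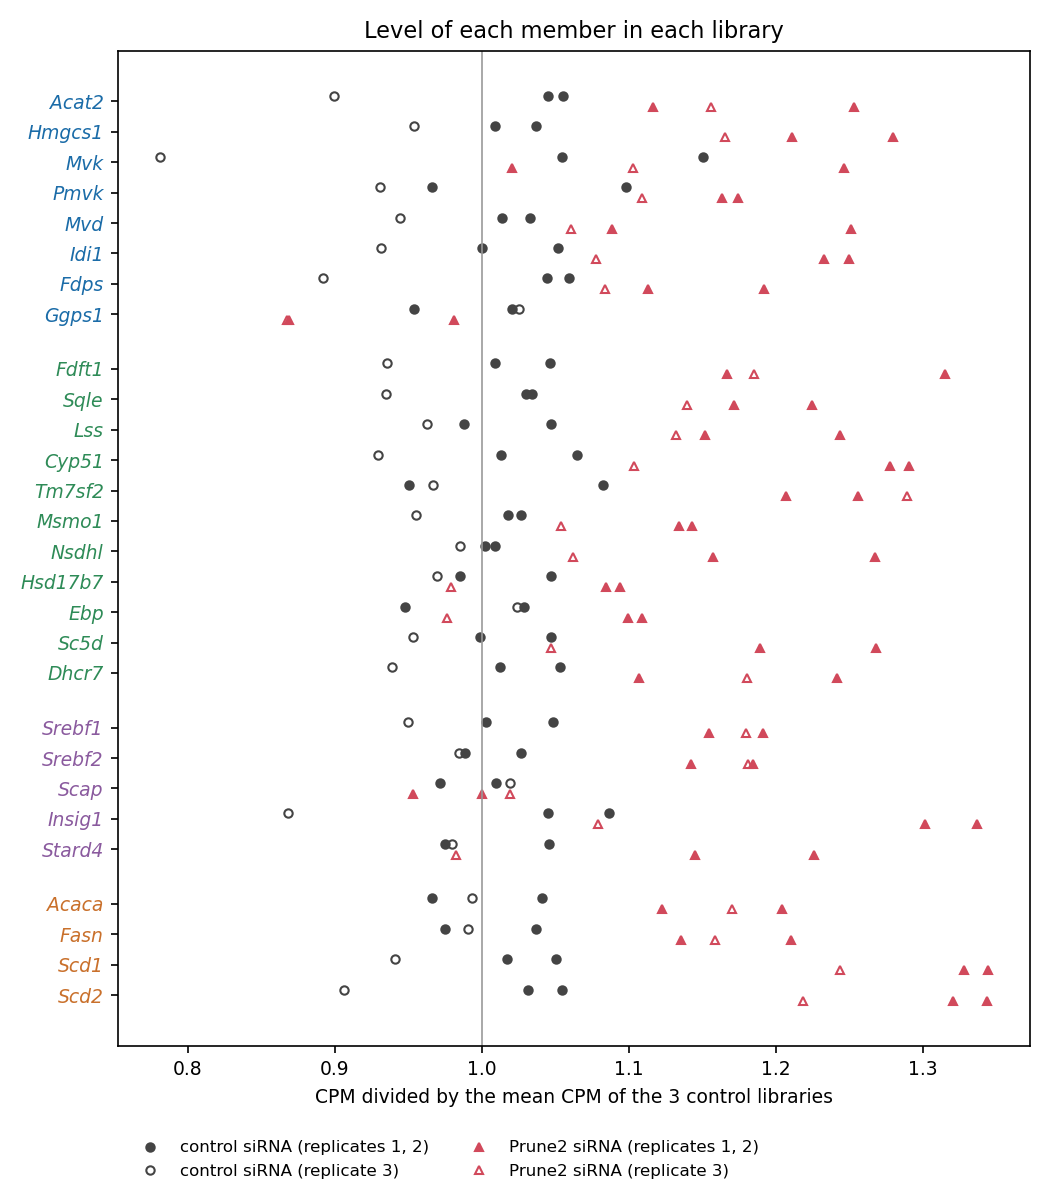
CPM of each member in each library divided by the mean of its 3 control libraries (x axis), members in pathway order with names coloured by role (y axis). Circles are control siRNA, triangles Prune2 siRNA, and open symbols replicate 3. For 21 of 28 members the triangles all lie to the right of the circles, and the open circle is the leftmost circle for 21.

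Of the 8 early mevalonate members 4 rose, with a median log2 fold change of 0.19. Hmgcs1, which condenses acetyl-CoA units into HMG-CoA, had 220, 226 and 208 CPM in control replicates 1, 2 and 3 and 279, 264 and 254 CPM in the Prune2 siRNA replicates (log2 fold change 0.28, SE 0.04, adjusted p = 1.54e-05). CPM are counts scaled to a common library total after TMM scaling. The groups were well apart, with Prune2 siRNA replicate 3 closest to the controls. Idi1, the isomerase that makes the reactive isoprenoid unit, had 116, 122 and 108 CPM in control and 145, 143 and 125 CPM with Prune2 siRNA (0.25, SE 0.05, adjusted p = 0.00115). Its lowest Prune2 siRNA library lay just above the highest control. Acat2, the cytosolic thiolase that opens the pathway, rose 1.18-fold (adjusted p = 0.0155), and Fdps, which makes farnesyl diphosphate, rose 1.13-fold (adjusted p = 0.0201). Both calls ended when either of 2 libraries was left out. With control replicate 3 left out, the log2 fold change of Acat2 went from 0.23 to 0.16 (adjusted p = 0.146) and that of Fdps from 0.18 to 0.099 (adjusted p = 0.193). With Prune2 siRNA replicate 1 left out, they were 0.19 (adjusted p = 0.103) and 0.14 (adjusted p = 0.119). In both of these fits 2 of the 8 early members were called. DESeq2 gave 0.288 for Fdps.

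The steps between HMG-CoA and the isoprenoid units were not called, at lower levels. Mvk, Pmvk and Mvd, which phosphorylate and decarboxylate mevalonate in turn, had log2 fold changes of 0.18 (SE 0.11), 0.20 (SE 0.10) and 0.18 (SE 0.07), with adjusted p of 0.407, 0.286 and 0.146. Their mean control levels were 14.6, 9.2 and 21.5 CPM, against 218 for Hmgcs1. These sizes are close to those of called members and their errors are wider. Ggps1, which lengthens farnesyl to geranylgeranyl diphosphate for protein prenylation, stood apart with a negative value. It had 56, 59.9 and 60.2 CPM in control and 51, 57.6 and 50.9 CPM with Prune2 siRNA (log2 fold change -0.14, SE 0.05, adjusted p = 0.109). Prune2 siRNA replicate 2 lay within the control range, and without it Ggps1 was called lower (-0.20, adjusted p = 0.0182). Over the 14 alternative fits its log2 fold change ran from -0.20 to -0.029.

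Of the 11 late sterol members 9 rose and the other 2 had values above 0 (median log2 fold change 0.23). Fdft1, squalene synthase, which commits farnesyl units to sterols, had 109, 113 and 101 CPM in control and 142, 126 and 128 CPM with Prune2 siRNA (0.30, SE 0.05, adjusted p = 8.26e-05). Every Prune2 siRNA library exceeded every control. Cyp51, the lanosterol demethylase, had 157, 165 and 144 CPM in control and 200, 198 and 171 CPM with Prune2 siRNA (0.29, SE 0.05, adjusted p = 0.000256). The gap between its closest libraries, control replicate 2 and Prune2 siRNA replicate 3, was narrow. Sqle and Lss, which oxidise squalene and close the ring, both rose 1.18-fold (adjusted p = 0.000568 and 0.00517).

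Among the enzymes that trim the ring, Tm7sf2, a sterol reductase, had the highest estimate and one of the lowest levels. It went from 12.1 ± 0.887 to 15.1 ± 0.51 CPM (mean ± SD of n = 3; change on the log2 scale 0.32, SE 0.09, adjusted p = 0.0156). Msmo1 and Nsdhl, which remove the methyl groups at a single carbon, rose 1.11-fold and 1.16-fold. Sc5d and Dhcr7, which act last on the ring's double bonds, rose 1.17-fold and 1.18-fold. The lowest Prune2 siRNA library and the highest control library of Sc5d both stood at 82.4 CPM. Hsd17b7, the ketoreductase of the demethylation steps, had 66.1 ± 2.71 and 69.6 ± 4.25 CPM (log2 fold change 0.07, SE 0.05, adjusted p = 0.483), and Ebp, the isomerase that follows, 21.1 ± 0.921 and 22.4 ± 1.56 CPM (0.08, SE 0.07, adjusted p = 0.601), both SD with n = 3. So within a run of steps, neighbours were called and not called, and whether they differ was not tested. Several of these calls ended when a library was left out. Without control replicate 3 the adjusted p was 0.061 for Tm7sf2, 0.148 for Msmo1 and 0.146 for Dhcr7. Without Prune2 siRNA replicate 1 it was 0.0803 for Msmo1, 0.0689 for Sc5d and 0.129 for Dhcr7, and without Prune2 siRNA replicate 2 it was 0.0873 for Msmo1 and 0.0893 for Nsdhl. Without Prune2 siRNA replicate 3 it was 0.0773 for Tm7sf2 and 0.0863 for Dhcr7, without control replicate 2 it was 0.0846 for Tm7sf2, and without control replicate 1 it was 0.0615 for Dhcr7. DESeq2 gave 0.0683 for Dhcr7.

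Of the 5 uptake and regulation members 3 rose. Srebf2, the factor that drives sterol genes, had 267, 257 and 256 CPM in control and 297, 308 and 307 CPM with Prune2 siRNA (log2 fold change 0.23, SE 0.04, adjusted p = 5.47e-05). Replicates were tight and the groups far apart for their spread. Srebf1, which drives fatty acid genes, had 73.4, 70.2 and 66.5 CPM in control and 80.8, 83.4 and 82.6 CPM with Prune2 siRNA (0.23, SE 0.05, adjusted p = 0.000809), again without overlap. Its isoforms were not counted apart. Insig1, the sterol-dependent brake on SREBP and itself an SREBP target, had 53.1, 55.2 and 44.1 CPM in control and 67.9, 66.1 and 54.8 CPM with Prune2 siRNA (0.31, SE 0.07, adjusted p = 0.00509). Replicate 3 was low in both groups, so Prune2 siRNA replicate 3 lay just under control replicate 2, and Insig1 was the called member whose groups overlapped. DESeq2 gave an adjusted p of 0.164 for it.

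Scap, the escort protein, was not called. It had 107, 103 and 108 CPM in control and 101, 106 and 108 CPM with Prune2 siRNA, so that the groups covered the same range (log2 fold change -0.01, SE 0.04, adjusted p = 0.906). The sign turned to 0.01 without Prune2 siRNA replicate 1. Stard4, a carrier that moves cholesterol between membranes, had 38.4, 41.2 and 38.6 CPM in control and 45.1, 48.3 and 38.7 CPM with Prune2 siRNA (0.16, SE 0.07, adjusted p = 0.152). Prune2 siRNA replicate 3 sat at the level of the controls, and without it Stard4 was called higher (0.25, adjusted p = 0.014).

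All 4 fatty acid members rose, with a median log2 fold change of 0.30. Scd1 and Scd2, desaturases that put the first double bond into saturated fatty acids, had the highest log2 fold changes of all members. Scd1 had 121, 125 and 112 CPM in control and 158, 160 and 148 CPM with Prune2 siRNA (0.38, SE 0.04, adjusted p = 5.9e-07). Scd2 had 1350, 1320 and 1160 CPM in control and 1720, 1690 and 1560 CPM with Prune2 siRNA (0.37, SE 0.05, adjusted p = 2.22e-06). Both pairs of groups stood well apart, and replicate 3 was the lowest library in each group of each gene. Both genes lie on chromosome 19 of GRCm38, Scd2 from 44293674 to 44306864 on the plus strand and Scd1 from 44394455 to 44407879 on the minus strand. They are close relatives, and how reads shared between copies were counted is not given in the sources used here, so their separate values are uncertain. Acaca, which makes malonyl-CoA, and Fasn, the fatty acid synthase, both rose 1.17-fold (adjusted p = 0.000289 and 8.84e-05), Fasn from 518 ± 16.4 to 605 ± 19.9 CPM (SD, n = 3).

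Per transcript length the members spanned a 32.2-fold range. Mean deposited FPKM in control libraries ran from 7.68 for Pmvk to 247 for Scd2, and Scd2 alone made up 22.3% of the summed FPKM of the members. Fdps followed at 163 FPKM, then Hmgcs1 at 67.3, Fasn at 59.9, Msmo1 at 55.2 and Srebf2 at 54.1. At the low end stood Lss, Stard4, Tm7sf2 and Mvk, at 8.57, 8.74, 9.21 and 9.48 FPKM. The spread of Mvk was wide (SD 1.85, n = 3), so its order against the other 3 and Pmvk lies within that spread. Summed FPKM went from 341 to 397 for early mevalonate, 281 to 327 for late sterol, 125 to 143 for uptake and regulation and 359 to 454 for fatty acid members.

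**Figure D4:**
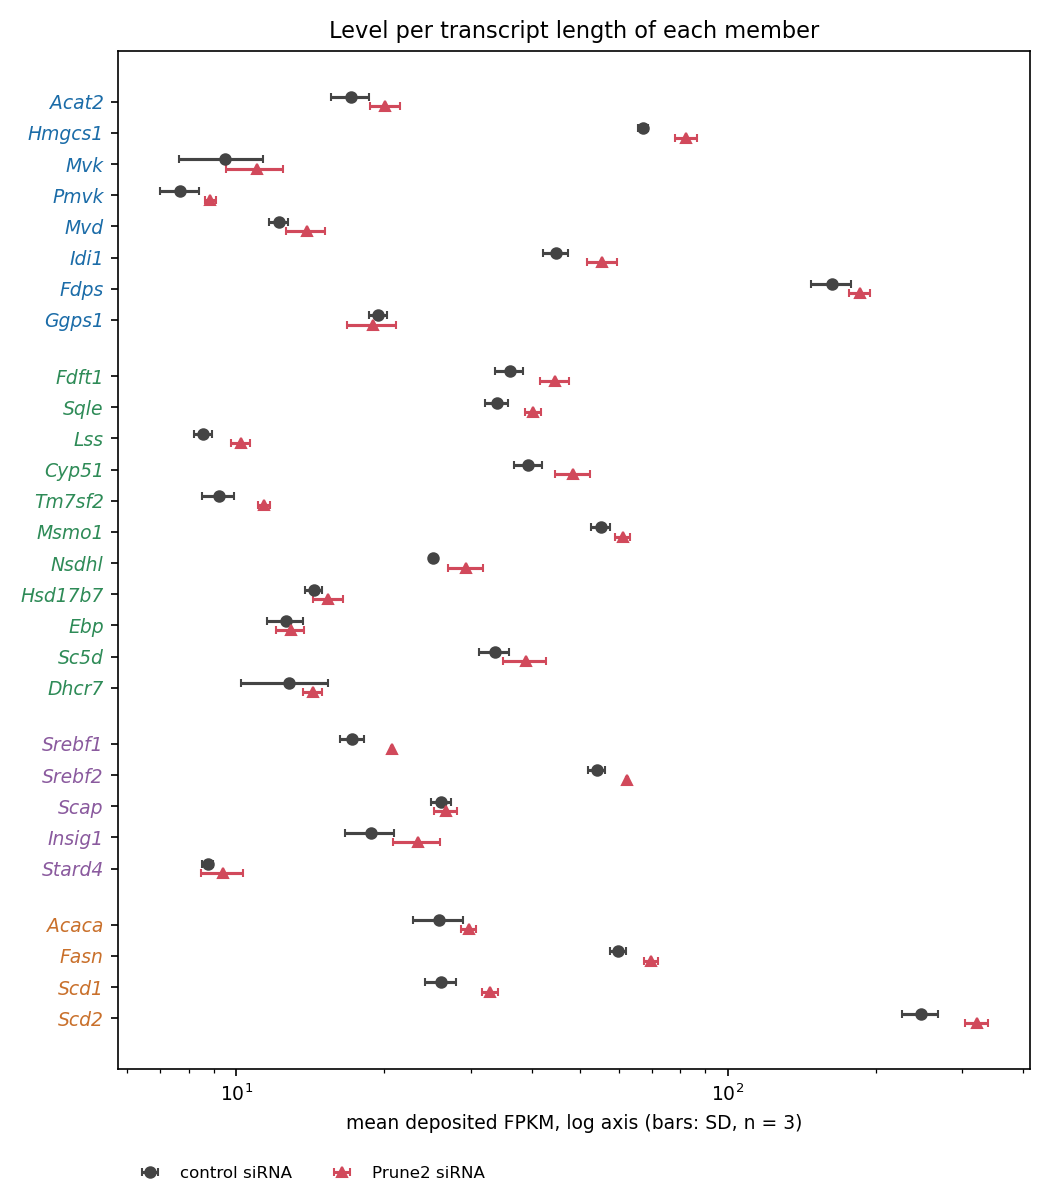
Mean deposited FPKM of each member (x axis, log scale, bars show the SD of 3 libraries) in control siRNA (circles) and Prune2 siRNA (triangles) libraries, members in pathway order with names coloured by role (y axis). Control levels run from 7.68 FPKM for Pmvk to 247 FPKM for Scd2.

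Pooled over 5 lists, neighbouring genes of the same biology moved less uniformly than the members, and the lists differed. The 5 lists of further pathway genes held 62 genes, of which 60 were tested, 14 rose and 5 fell, with a median log2 fold change of 0.0073. Of all tested genes, 4.46% were called higher and 5.83% lower. The list of efflux genes had a median of 0.24, with values above 0 for 5 of 5 tested genes. That median lay within the 0.19 to 0.30 of the role groups of members. The other lists had medians of -0.02 to 0.09. Of 12 other isoprenoid and sterol enzymes 2 rose and 0 fell. Among them Erg28, a scaffold of the demethylating enzymes, went from 20.7 ± 1.44 to 25.8 ± 1.5 CPM (mean ± SD of n = 3; change on the log2 scale 0.32, SE 0.07, adjusted p = 0.0037). The 10 not called were enzymes of dolichol and ubiquinone synthesis and of protein prenylation, with log2 fold changes of -0.11 to 0.097. Ggps1 belongs to the same branch.

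SREBP processing and sterol sensing genes were mostly not called: of 11 tested 0 rose and 1 fell. Mbtps1 and Mbtps2, the proteases that cleave SREBP in the Golgi, had log2 fold changes of -0.02 (SE 0.04) and -0.04 (SE 0.05), and Insig2, the paralog of Insig1, -0.07 (SE 0.06). Soat1, which esterifies cholesterol for storage and is abundant in macrophages, fell from 31.4 ± 1.65 to 25.9 ± 1.65 CPM (SD, n = 3; adjusted p = 0.00435), in libraries where 15 of 15 tested leukocyte markers fell. Their part in its fall was not tested.

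Of 19 tested lipogenic targets 6 rose and 1 fell. Aacs, which activates ketone bodies for lipid synthesis, rose 1.19-fold (adjusted p = 0.00215). Fads2, a desaturase of polyunsaturated fatty acids, rose 1.13-fold (adjusted p = 0.00308), and Acsl3, a long-chain acyl-CoA synthetase, 1.15-fold (adjusted p = 0.00736, and 0.0611 without control replicate 1). Acly, which supplies the cytosolic acetyl-CoA that both pathways use, was the one that fell, from 541 ± 14.6 to 497 ± 9.07 CPM (mean ± SD of n = 3; change on the log2 scale -0.12, adjusted p = 0.0243). The adjusted p of Acly was 0.0927 without control replicate 1, 0.114 without control replicate 2 and 0.132 without Prune2 siRNA replicate 3. Acss2, the acetate-activating enzyme, was low, at 4.5 ± 0.795 and 4.08 ± 0.822 CPM, and was not called (adjusted p = 0.731).

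Uptake and transport genes went both ways, with 3 higher and 3 lower of 13 tested. The lipoprotein receptors Vldlr and Lrp8 both rose 1.18-fold (adjusted p = 0.00371 and 0.00824), as did Stard5, a sterol carrier, at 1.14-fold (adjusted p = 0.0264). Lrp1, a large endocytic receptor, fell by 0.22 on the log2 scale (adjusted p = 0.00178), Gramd1b, a sterol transfer protein, by 0.28 (adjusted p = 0.0292), and Cd36, a scavenger receptor of macrophages and endothelium, by 1.64, from 1.03 ± 0.21 to 0.324 ± 0.131 CPM (SD, n = 3; adjusted p = 0.00634). Leukocyte and endothelial markers fell in the same libraries, and their part in the fall of Cd36 was not tested. Lrp8 lost its call without control replicate 3 (0.0973). For Stard5 the adjusted p was 0.145 when control replicate 1 was left out, 0.0583 without control replicate 2 and 0.12 without Prune2 siRNA replicate 3. For Gramd1b it was 0.164 without control replicate 2, 0.0893 when Prune2 siRNA replicate 1 was left out and 0.0873 without the third of that group. DESeq2 gave 0.0689 for Stard5 and 0.0841 for Gramd1b.

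The last list held efflux genes and targets of LXR, the oxysterol receptor that answers high cellular sterol. Of its 5 tested genes 3 rose and 0 fell. Abca1, which exports cholesterol, went from 24.5 ± 0.973 to 40.7 ± 0.554 CPM (mean ± SD of n = 3; change on the log2 scale 0.73, SE 0.06, adjusted p = 1.74e-09), and Abcg1, another exporter, from 21.7 ± 1.63 to 31.3 ± 1.8 CPM (0.52, SE 0.07, adjusted p = 5.81e-06). Lpcat3, a phospholipid-remodelling enzyme, rose 1.18-fold (adjusted p = 0.00149). Scd1, Fasn and Srebf1 among the members are known LXR targets as well as SREBP targets.

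**Figure D5:**
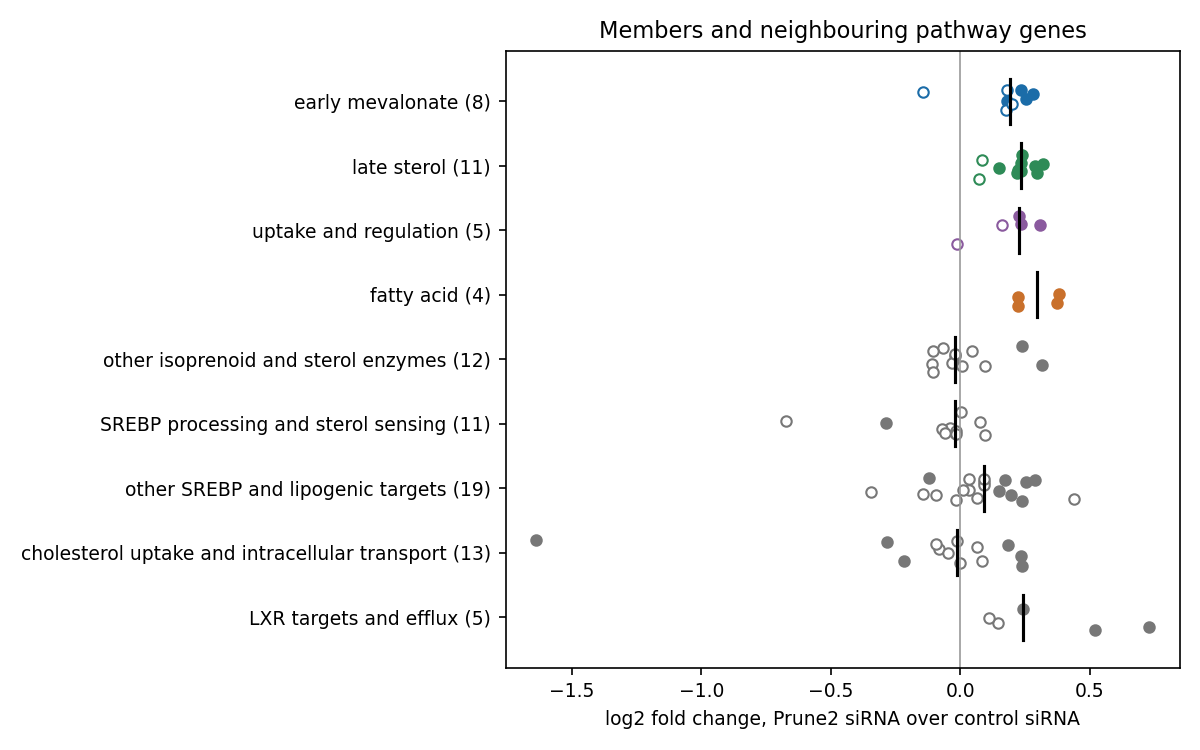
Log2 fold change (x axis) of each tested gene in the 4 role groups of members and the 5 lists of neighbouring pathway genes (y axis, number of genes in parentheses). Filled points have an adjusted p under 0.05 and black bars mark list medians. The members' medians lie between 0.19 and 0.30, and that of the LXR and efflux list, 0.24, lies in the same range. The median of the lipogenic list is 0.09, and those of the prenylation, processing and transport lists lie near 0.

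In the authors' deposited table, 17 of the 28 members had a positive fold change and an adjusted p below 0.05, as had 1.89% of its 22274 genes. All 17 were among the 20 called here. The 3 called only here were Fdps, Tm7sf2 and Dhcr7, whose adjusted p in the authors' deposited table was 0.358, 0.0848 and 0.109.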

How the data were processed

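Per the file headers, the deposited table holds raw read counts and FPKM for each of the 6 libraries, the authors' mean FPKM of each group, and the authors' log2 fold change, p-value and adjusted p-value, whose test is not given in the sources used here. As builds, the submitters' processing notes list GRCm38 and mm10, and the aligner and counter were not given in the sources used here, nor was strandedness. Gene identifiers were matched to GENCODE M21, and promoter sequences came from RefSeq on GRCm38.p6.

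Tests on the deposited counts used edgeR 4.0.16 under R 4.3.3 (TMM scaling, filterByExpr, glmQLFit, glmQLFTest) over 13248 genes with Benjamini-Hochberg adjustment, without a replicate block. The SE is the log2 fold change divided by the square root of F. The procedure was tested on simulated data. Sums over marker lists use TMM factors over all genes in the table. Replicate libraries differed by 2.57 to 3.92 in chi-square per degree of freedom, more than sampling noise gives, and each counts as 1 sample. The 14 alternative fits were RLE, upper-quartile or no scaling, DESeq2 1.42.0, no filter, limma 3.58.1 on log2(FPKM + 1) and log2(FPKM + 0.1) for genes over 0.1 FPKM in at least 3 libraries, a replicate block, and leaving out each library.

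The members and lists were chosen with earlier results of these data known. All members are named. Values are given by library for the 2 members with the smallest adjusted p in each role and for the regulators and desaturases. Of each neighbouring list up to 3 called genes per direction are named, plus Mbtps1, Mbtps2, Insig2, Acly and Acss2, and 1 gene is not reported here. The marker genes named with their levels were chosen after their values were seen.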

Additional observations from a re-analysis of the deposited data

How the results depend on the processing

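Of 392 member values over the 14 alternatives, 350 kept their direction and their side of the threshold, 37 lost the call, 2 gained it and 3 turned direction. The 10 members called in all 14 were Hmgcs1, Idi1, Fdft1, Sqle, Cyp51, Srebf1, Srebf2, Fasn, Scd1 and Scd2. The 3 that turned were Scap at 0.034 and 0.036 (log2) with limma on log2(FPKM + 1) and log2(FPKM + 0.1), and 0.0104 without Prune2 siRNA replicate 1, none of them called, over a leave-one-out range of -0.0358 to 0.0104. The counts of called members, 20 as reported, were 20 with each other scaling, without the filter and with the replicate block, and 17 with DESeq2. With limma on FPKM they were 11 at either pseudocount, with 2 early mevalonate and 4 late sterol members. Neighbouring genes were then 6 higher at a pseudocount of 1 and 7 at 0.1, with 0 lower at both, and all tested genes 328 higher at both and 426 or 437 lower. The unit, test and filter change together there, and the cause was not tested. Leaving out each library gave 15 to 19 members higher and 0 to 1 lower, the latter being Ggps1, 2 to 4 early mevalonate members, and 3 to 5 neighbouring genes lower. Same-numbered libraries of the groups deviated together with r = 0.151, -0.00516 and 0.0544 over 9063 genes above 10 CPM. Differently numbered libraries gave r of -0.204 to 0.149, so the numbers were not taken as pairs. Among the 28 members, replicate 3 was the lowest library for 21 in control and 18 in Prune2 siRNA. Pairing within the members alone was not tested. The replicate block gave 664 genes higher and 826 lower against 591 and 773. Small counts, 182 to 247 per library for Pmvk, limit the precision for low members.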
